A study of Parhyale hawaiensis with 42 samples.

Results

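The let-7 complex of the amphipod crustacean *Parhyale hawaiensis* was followed through embryonic development in small RNA libraries of whole embryos. Its members were chosen by name, and they are the mature microRNAs of both arms of the precursors let-7c, Dpu-Mir-10-P2, which belongs to the miR-100 group, and Dpu-Mir-10-P3, which belongs to the miR-125 group. These are 6 of 349 quantified mature microRNAs and 3 of 175 precursors. All embryos came from a wild-type laboratory strain, were staged by eye, and were pooled before RNA was extracted. The 28 libraries are 4 replicates at each of 7 time-points, labelled S1–4, S6, S8–11, S14, S17, S21–23 and S24–30, where S stands for embryonic stage. The paper writes S5–6 and S7–11 for the second and the third of these. No treatment or genotype was compared, and 14 mRNA libraries of the same series were not used here.

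In bilaterian animals, let-7, miR-100 and miR-125 often lie together in the genome. In *Drosophila* they are processed from a shared primary transcript, which is induced by the steroid hormone ecdysone at the onset of metamorphosis. let-7 was found in *C. elegans* as a switch of developmental timing that acts late in larval life and represses lin-41. miR-125 is the relative of lin-4, which acts earlier in the same timing pathway. miR-100 is a relative of miR-10, whose gene lies in the Hox cluster of many animals, and the Dpu-Mir-10 names of the files reflect this shared family.

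All 3 precursors were annotated on contig LQNS02277998.1 of the Phaw 5.0 genome, and no other microRNA precursor was annotated on it. The file gives locus number 30984 for Dpu-Mir-10-P2, 30986 for let-7c and 30988 for Dpu-Mir-10-P3. Each name occurred at a single locus, and none of the 28 libraries gave a fractional count to any member. The mature microRNAs were 21 to 23 nt long, so counts were compared between members without a length correction. A small RNA library does not capture every microRNA equally well, so a ratio between members was read as a change over time.

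The libraries differed in depth by more than an order of magnitude, from 112244 counts in an S14 library to 1846449 in an S1–4 library. The median was 474499. Levels are given as normalized counts, which are counts divided by the size factor of each library. Changes were tested with edgeR. A call needed a log2 fold change of 1.5 or more in either direction together with an adjusted p no larger than 0.001. In counts of tested microRNAs, rose and fell stand for called higher and called lower. Of the 349 mature microRNAs, 234 reached a mean of 10 normalized counts in 1 or more time-points and were tested, and 5 of the 6 members were among them. Neither the labels nor the methods state that replicates came from separate broods, so p-values measure how much these samples vary among themselves, part of which may be technical. In whole embryos, fewer cells that express a microRNA and less of it per cell cannot be told apart.

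Summed over all libraries, which differ in depth and in the shares of the members, most counts came from the 5p arm of the miR-100 group. Dpu-Mir-10-P2-5p had 65977 counts, let-7c-5p had 4633 and Dpu-Mir-10-P3-5p had 531, although at S24–30 let-7c-5p had the higher count in 3 of 4 libraries (640 against 491, 1061 against 889 and 673 against 536). The 3p arms were rarer, with 1036 counts for Dpu-Mir-10-P2-3p and 129 for Dpu-Mir-10-P3-3p. let-7c-3p had a count of 0 in every library, and 0 of 14854033 counts allows up to 0.202 counts per 1000000 counts of a library (CPM). With 3 counts over all libraries as the floor, let-7c-5p was at least 1544-fold higher than let-7c-3p. Such limits cover counting error only, because PCR reads without molecular identifiers are not independent molecules.

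Dpu-Mir-10-P2-5p was most abundant in the earliest embryos and lost most of its level before organs formed. At S1–4 the 4 libraries held 5033, 6121, 10010 and 9067 normalized counts, and at S6 they held 16550, 8437, 9120 and 9198. The S8–11 libraries held 2153, 2099, 1450 and 1389, and the S14 libraries 807.0, 1495, 690.7 and 768.9. The first 2 time-points overlapped, and every S8–11 library lay below all libraries of both. At S17 the values were 665.0, 426.5, 349.2 and 348.5, at S21–23 they were 180.0, 60.83, 107.0 and 71.82, and at S24–30 they were 195.9, 204.2, 262.2 and 188.8. The S21–23 libraries were the lowest of the series, and the S24–30 libraries lay above all of them and below all S17 libraries. Means were 10830 ± 3829 (SD, n = 4) at S6 and 105 ± 53.8 (SD, n = 4) at S21–23.

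let-7c-5p had a different course, high at both ends of embryogenesis. The S1–4 libraries held 252.6, 193.1, 177.9 and 239.0 normalized counts, and the S6 libraries 160.1, 103.2, 224.9 and 294.1. From there the level was lower in each of the next 2 time-points, with 51.98, 50.42, 63.68 and 78.96 at S8–11 and 29.98, 33.97, 41.53 and 16.84 at S14. The S8–11 values overlapped with neither S6 nor S14. At S17 the libraries held 14.40, 37.63, 20.41 and 13.52, and at S21–23 they held 84.19, 11.54, 8.970 and 7.286. Replicate 1 of S21–23 stood far above the other 3 libraries of its time-point. The S24–30 libraries held 167.6, 266.2, 312.9 and 237.1, a mean of 246 ± 60.8 (SD, n = 4), which overlapped with the 216 ± 35.8 (SD, n = 4) of S1–4.

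Dpu-Mir-10-P3-5p was also highest in the first 2 time-points, at far lower counts than the miR-100 group. Its S1–4 libraries held 62.55, 53.04, 80.33 and 71.29 normalized counts, its S6 libraries 136.6, 116.5, 50.31 and 77.27, and its S8–11 libraries 19.19, 8.581, 4.994 and 4.436. The S8–11 range lay below both earlier ranges, which overlapped with each other. From S14 to S21–23 a library held between 0 and 4 reads of this microRNA, and at S24–30 between 4 and 8. The 4 S24–30 libraries, at 1.737, 2.496, 2.359 and 2.114 normalized counts, were all above the S17 libraries and overlapped with those of S14. The rarer arm Dpu-Mir-10-P3-3p held 6.365 to 28.87 normalized counts at S1–4, 10.36 to 49.85 at S6 and 0.7996 to 3.549 at S8–11, and had no read in any S14 library.

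**Figure D1:**
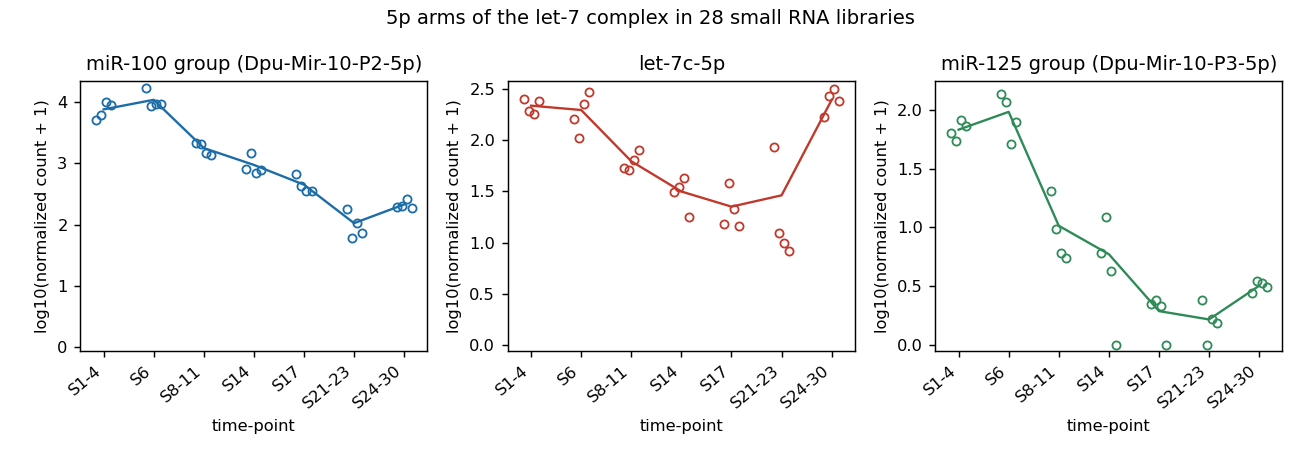
Levels of the 5p arms of the let-7 complex at 7 time-points (x axis), as log10 of the normalized count plus 1 (y axis, own range in each panel). Open circles are the 4 libraries of a time-point, and lines join time-point means. On this scale let-7c-5p had a mean of 246 normalized counts at S24–30 against 216 at S1–4, while Dpu-Mir-10-P2-5p had a mean of 213 there against 7559 at S1–4.

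Which of these differences passed the test was asked for each step between adjacent time-points. Between S1–4 and S6, edgeR called 0 of 5 tested members, none of them had an unadjusted p under 0.05, and DESeq2 called 0 as well. Over all tested microRNAs, edgeR called 0% higher and 1.28% lower at this step, against 3 higher calls by DESeq2 and 52 microRNAs that were higher at an unadjusted p under 0.05. The log2 fold changes of the members ran from −0.10 for let-7c-5p to 0.61 for Dpu-Mir-10-P3-3p.

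From S6 to S8–11, 2 of 5 tested members fell, where 8.97% of all tested microRNAs were called lower and 6.41% higher. Both arms of Dpu-Mir-10-P3 passed the filter only through S1–4 and S6, so their fall from S6 was partly fixed by it. Dpu-Mir-10-P2-5p fell by 2.44 on the log2 scale (SE 0.36, edgeR adjusted p = 5.66e-06), a 5.43-fold decrease. Dpu-Mir-10-P3-5p fell by 3.15 (SE 0.66, edgeR adjusted p = 0.000392). Its call was lost when S6 replicate 1 or 2, or S8–11 replicate 2, 3 or 4, was left out, with an adjusted p of at most 0.00298 across the 8 libraries left out in turn. Dpu-Mir-10-P3-3p had a log2 fold change of −3.38 and missed the threshold (edgeR adjusted p = 0.00177). let-7c-5p had −1.53 (SE 0.56), with an edgeR adjusted p of 0.0276. Dpu-Mir-10-P2-3p, the other arm of the miR-100 precursor, had −0.13 (SE 0.46, edgeR adjusted p = 0.819).

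The values at this step depend on the scaling of the libraries. When libraries were scaled by their total counts, the median log2 fold change of all tested microRNAs was 1.24 in place of −0.25, with 68 called higher and 1 lower in place of 15 and 21. Dpu-Mir-10-P2-5p then had −0.88 and Dpu-Mir-10-P3-5p had −1.66, and neither was called (edgeR adjusted p = 0.0284 and 0.029). let-7c-5p turned from −1.53 to 0.12, and Dpu-Mir-10-P2-3p from −0.13 to 1.45. Relative to the median of all tested microRNAs, Dpu-Mir-10-P2-5p lay at −2.19 with the main scaling and at −2.12 with total counts. At S6, miR-92 and miR-184 made up 90.3% ± 1.67 (SD, n = 4) of all counts, and at S8–11 they made up 73.3% ± 2.81 (SD, n = 4). The part of this change in the member values was not tested.

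Between S8–11 and S14, and between S14 and S17, edgeR called 0 of 5 members. At both steps 3 members were lower at an unadjusted p under 0.05, and DESeq2 called 1 member lower at the first and 0 at the second. At the first step 2.56% of all tested microRNAs were called higher and 4.27% lower, and at the second 0.855% higher and 0% lower, where DESeq2 called 5 lower and 30 were lower at an unadjusted p under 0.05. Dpu-Mir-10-P2-5p had a log2 fold change of −1.1 (SE 0.35) at the first step and −1.04 (SE 0.35) at the second. Dpu-Mir-10-P2-3p had −2.02 at the first step (SE 0.49, edgeR adjusted p = 0.00257), and was called lower there when S14 replicate 2 was left out (adjusted p = 0.000618). Its 4 S8–11 libraries held 75.97, 91.18, 78.66 and 50.57 normalized counts and lay above all S14 libraries, which held 17.49, 42.46, 10.93 and 14.03.

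From S17 to S21–23 Dpu-Mir-10-P2-5p fell by 1.89 on the log2 scale (SE 0.36, edgeR adjusted p = 0.000201), as the only called member, where 3.42% of all tested microRNAs were called lower and 4.7% higher. The call was lost without S17 replicate 1 and without S21–23 replicate 2 or 4, where the adjusted p reached 0.00148. let-7c-5p had 0.66 (SE 0.58, edgeR adjusted p = 0.39) at this step. Its sign came from S21–23 replicate 1, and it was −1.18 without that library (edgeR adjusted p = 0.0341).

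From S21–23 to S24–30 let-7c-5p was the only one of the 5 tested members that was called higher. Its log2 fold change was 2.87 (SE 0.58, edgeR adjusted p = 0.000621), a 7.29-fold increase, where 2.99% of all tested microRNAs were called higher and 6.41% lower. All 4 S24–30 libraries lay above all 4 S21–23 libraries. Without S21–23 replicate 1 the log2 fold change was 4.58 (edgeR adjusted p = 1.89e-08). Without any of the other S21–23 libraries, or without S24–30 replicate 2, 3 or 4, it stayed between 2.53 and 2.93, and the adjusted p was then 0.00125 to 0.003, beyond the threshold. Dpu-Mir-10-P2-5p had 0.83 (SE 0.35, edgeR adjusted p = 0.0662) and Dpu-Mir-10-P3-5p had 1.28 (SE 0.73, edgeR adjusted p = 0.158). The 3p arms had 0.60 for Dpu-Mir-10-P2-3p (edgeR adjusted p = 0.328) and 1.05 for Dpu-Mir-10-P3-3p (edgeR adjusted p = 0.361). The log2 fold change was thus positive in all 5 members.

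The library that stood apart in let-7c-5p also stood apart in the muscle list. The list of miR-1 and miR-133 (6 mature microRNAs) summed to 553.9 normalized counts in the library S21–23 replicate 1, while the other 3 had 124.9 to 164.7 and those of S24–30 had 897.6 to 1668. Both miR-133-5p copies were at 0 in all 4 S21–23 libraries. miR-133-3p, a muscle microRNA whose copies share reads, was at 60.34 per copy in replicate 1 and at 0 to 5.204 in the others. The sum of the neural list (10 mature microRNAs of miR-124, miR-7 and miR-9) did not stand apart in this way, but its members differed. The sum was 29390 in replicate 1, the lowest of the 4, and 30750 to 40510 in the others. Higher in replicate 1 were miR-124-3p (34.03 against 4.164 to 6.407), miR-124-5p (25.96 against 16.65 to 19.93) and miR-7-5p (4915 against 1704 to 2139). miR-9-5p, which makes up most of the sum, was lower than in the others at each of its 3 loci (5994 to 9216 against 8193 to 13800 over the loci). These microRNAs were chosen after their values were seen. The part that these differences play in the let-7c-5p values was not tested.

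Over the whole of embryogenesis the members parted. Between S1–4 and S24–30, 4 of 5 tested members fell, where 24.8% of all tested microRNAs were called lower and 31.2% higher. Of these 4, only Dpu-Mir-10-P2-5p passed the filter of 10 normalized counts at both ends. Dpu-Mir-10-P2-3p and both arms of Dpu-Mir-10-P3 passed it only through earlier time-points, with means of 6.45, 2.18 (5p) and 0.682 (3p) at S24–30. A fall to S24–30 was partly fixed by the filter in these, so no conclusion was drawn from the count of 4. Dpu-Mir-10-P2-5p fell by 5.07 on the log2 scale (SE 0.41, edgeR adjusted p = 4.55e-11), a 33.59-fold decrease. Dpu-Mir-10-P2-3p also fell, at −3.73 (edgeR adjusted p = 4.84e-07), as did Dpu-Mir-10-P3-5p at −4.80 (1.65e-06) and Dpu-Mir-10-P3-3p at −4.31 (6.94e-05). let-7c-5p was not called, at 0.27 (SE 0.54, edgeR adjusted p = 0.642), where the median of all tested microRNAs was 1.09. From S8–11 to S24–30, 25.2% of all tested microRNAs were called lower and 28.2% higher, and both arms of Dpu-Mir-10-P2 fell, by 3.21 for the 5p arm and 3.64 for the 3p arm. Dpu-Mir-10-P3-5p had −2.22 and let-7c-5p had 1.90 (SE 0.56), both with an edgeR adjusted p of 0.00363.

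The late level of let-7c-5p was read differently on the 2 scales. As a share of all microRNA counts it was 188 ± 29.7 CPM (SD, n = 4) at S1–4, 78.9 ± 43.6 at S17 and 1031 ± 168 at S24–30, where all 4 libraries lay above every earlier library. With total count scaling its log2 fold change from S1–4 to S24–30 was 2.45 (edgeR adjusted p = 0.000352), and it was called higher. The median of all tested microRNAs was 3.22 under that scaling, and let-7c-5p lay at −0.76 relative to it, against −0.82 with the main scaling. Dpu-Mir-10-P2-5p was lower on both scales, with 6536 ± 1706 CPM (SD, n = 4) at S1–4 and 902 ± 106 at S24–30. With total counts, Dpu-Mir-10-P2-3p (log2 fold change −1.58) and Dpu-Mir-10-P3-3p (−2.10) lost their call, and Dpu-Mir-10-P3-5p (−2.62) kept it.

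**Figure D2:**
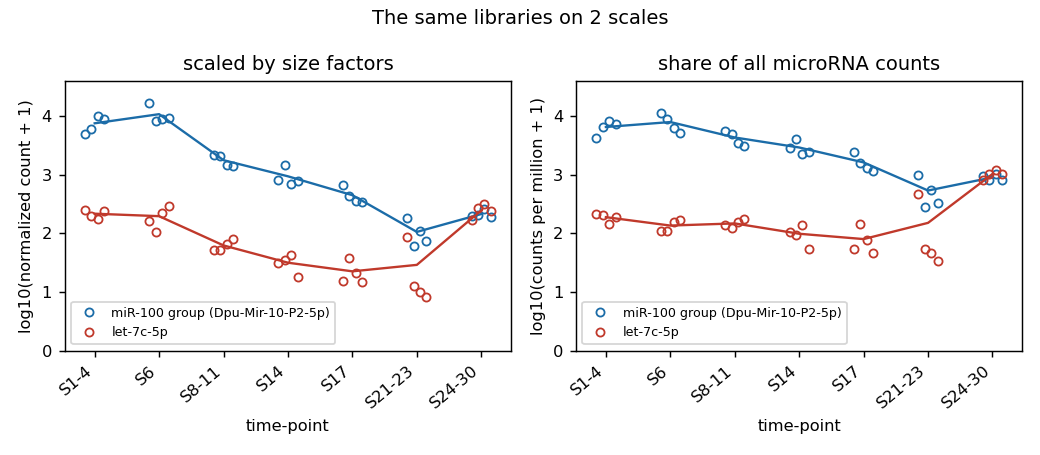
Dpu-Mir-10-P2-5p (blue) and let-7c-5p (red) in the same 28 libraries at 7 time-points (x axis), as log10 of the normalized count plus 1 (left) and as log10 of the CPM plus 1 (right). Circles are libraries and lines join time-point means. At S24–30 let-7c-5p was near its S1–4 level on the left (246 against 216) and above it on the right (1031 against 188 CPM).

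Ratios between members within a library do not depend on scaling, and they were used to ask whether the complex moved together. The log2 ratio of let-7c-5p to Dpu-Mir-10-P2-5p had a mean of −5.09 ± 0.62 (SD, n = 4) at S1–4, −5.83 ± 0.81 at S6, −4.84 ± 0.62 at S8–11, −4.89 ± 0.65 at S14 and −4.41 ± 0.85 at S17. It then was −2.56 ± 1.1 at S21–23 and 0.19 ± 0.28 at S24–30. Its first 5 time-points overlapped with their neighbours, and the S24–30 libraries, from −0.22 to 0.38, lay above all others. The ratio differed over the 7 time-points (F = 31.06, permutation p = 1e-05, the smallest that 100000 resamples can give, adjusted p = 1.5e-05 over 3 ratios).

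The step from S21–23 to S24–30 raised this ratio by 2.74 (SE 0.57). The exact two-sided permutation p was 0.0286, the smallest that 4 against 4 libraries can give. The adjusted p over 24 such step tests was 0.0857, above the threshold of 0.05. With this smallest p, a step can pass only if many of the 24 also reach it. The adjusted p therefore cannot rank separated steps by size, and no conclusion was drawn from it. Without S21–23 replicate 1 the step was 3.23. The difference from S1–4 to S24–30 was 5.27 (SE 0.34), and that from S8–11 to S24–30 was 5.03 (SE 0.34), with the same exact p and adjusted p. None of the 4 steps from S1–4 to S17 separated the libraries of this ratio.

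The make-up of the complex in counts differed most at the last time-point. let-7c-5p made up 3.01% ± 1.26 (SD, n = 4) of the counts of the 3 5p arms at S1–4 and between 1.90% and 4.86% in the means of S6 to S17. At S21–23 it made up 16.1% ± 11.0, with 31.7% in the highest library, which was replicate 1, and 7.69% in the lowest. At S24–30 it made up 52.9% ± 4.77 (SD, n = 4), with libraries from 45.9% to 56.3%. Dpu-Mir-10-P2-5p went from 96.1% ± 1.44 at S1–4 to 46.6% ± 4.78 at S24–30. Dpu-Mir-10-P3-5p stayed under 1% in every time-point mean. The 3 5p arms together made up 0.678% ± 0.169 (SD, n = 4) of all microRNA counts at S1–4, 0.0691% ± 0.0539 at S21–23 and 0.194% ± 0.0218 at S24–30.

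**Figure D3:**
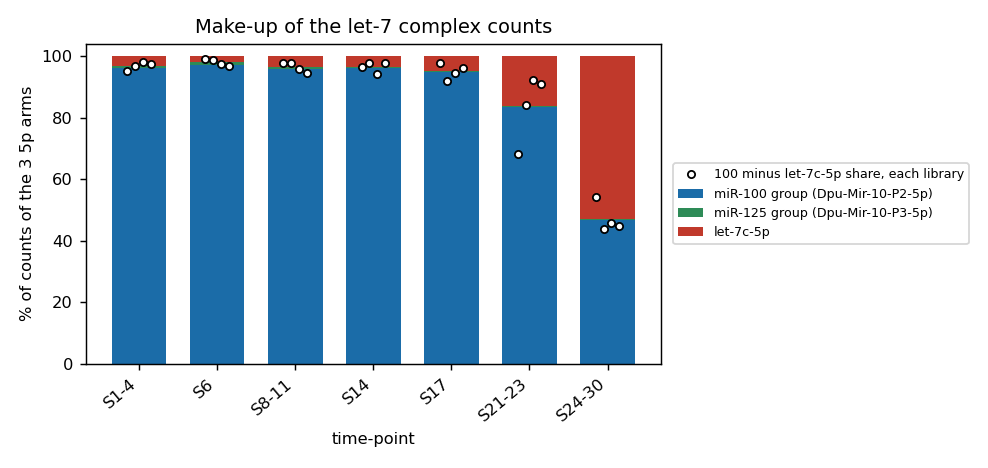
Share of each member in the summed counts of the 3 5p arms (y axis, %) at 7 time-points (x axis); stacked bars are means of 4 libraries, and each white circle marks 100 minus the let-7c-5p share of a library. The share of let-7c-5p was 52.9% at S24–30 and at most 16.1% in the means of the other time-points.

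The ratio between the other two 5p arms covered a narrower range. The log2 ratio of the miR-125 group to the miR-100 group had means between −8.35 at S17 and −6.49 at S24–30. It differed over time (F = 5.0, permutation p = 0.00417, adjusted p = 0.00417), and its S1–4 and S24–30 libraries overlapped, at a difference of 0.28 (SE 0.19, exact permutation p = 0.2). It was higher at S21–23 than at S17 by 1.59 (SE 0.44, exact permutation p = 0.0286, adjusted p = 0.0857). At S14 to S21–23 it rests on 0 to 4 reads of the miR-125 group per library, and with 5 in place of 0.5 added to both counts the difference from S21–23 to S24–30 turned from 0.27 to −0.99. The log2 ratio of let-7c-5p to Dpu-Mir-10-P3-5p had a mean of 1.68 ± 0.38 (SD, n = 4) at S1–4 and 6.68 ± 0.22 at S24–30, and differed over time (F = 16.32, permutation p = 1e-05, adjusted p = 1.5e-05). Its step from S21–23 to S24–30 was 2.47 (SE 0.60, exact permutation p = 0.0286, adjusted p = 0.0857).

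**Figure D4:**
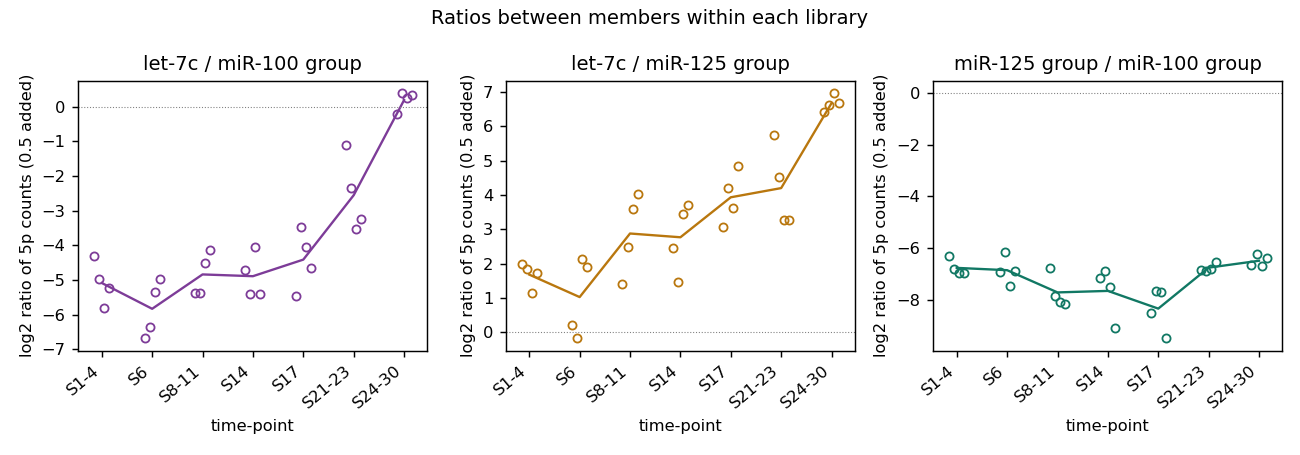
Log2 ratios between the 5p counts of 2 members within each library, with 0.5 added to both (y axis, own range in each panel), at 7 time-points (x axis). Circles are libraries and lines join time-point means. The ratio of let-7c to the miR-100 group had a mean of −5.09 at S1–4 and 0.19 at S24–30, and the ratio of the miR-125 group to the miR-100 group was −6.77 and −6.49.

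The arms of the miR-100 precursor did not keep a fixed balance. The 5p arm gave 98.5% of all counts of both arms, and the log2 ratio of 5p to 3p normalized counts had a mean of 6.31 ± 0.66 (SD, n = 4) at S1–4, 6.87 ± 0.62 at S6 and 4.57 ± 0.28 at S8–11. The S6 libraries, from 5.99 to 7.38, lay above the S8–11 libraries, from 4.20 to 4.82, and 11.5% of 156 precursors showed such a drop without overlap. Later means were between 4.47 and 5.69, from 26 to 73 reads of the 3p arm per time-point. The ratio differed over time by the F-test of limma (F = 5.07, adjusted p = 0.00329), as it did for 76.3% of the 156 precursors. The call was lost without replicate 2 of each time-point (limma adjusted p = 0.0623). The miR-125 precursor gave 80.5% of its counts from the 5p arm, and its arm ratio was not called (limma F = 2.32, adjusted p = 0.0817). It was called with 5 in place of 0.5 added (adjusted p = 0.000359) and without replicate 4 of each time-point (adjusted p = 0.0173). For let-7c, with no 3p read, the ratio follows only the 5p count, and no test is given.

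**Figure D5:**
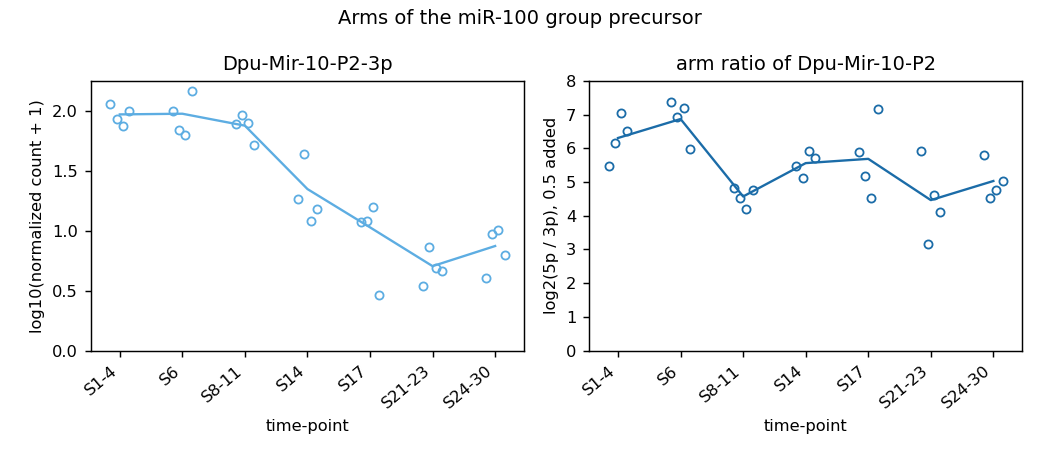
Level of Dpu-Mir-10-P2-3p as log10 of the normalized count plus 1 (left) and log2 ratio of the 5p to the 3p arm of Dpu-Mir-10-P2 with 0.5 added to both (right), at 7 time-points (x axes). Circles are libraries and lines join time-point means. The mean ratio was 6.87 at S6 and 4.57 at S8–11, where the 3p arm still held 50.57 to 91.18 normalized counts.

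The likeness of profiles was described by Pearson's r over the 7 time-point means, which come from the same libraries, among the 234 microRNAs that passed the filter. Of the 233 others, the most like let-7c-5p was miR-2765-5p (r = 0.94), followed by miR-316-3p (r = 0.94) and the 5p arm of locus 6447 on contig LQNS02007216.1 (r = 0.89). The members of its own complex came later in that order, with Dpu-Mir-10-P3-3p at rank 19 (r = 0.68), Dpu-Mir-10-P3-5p at rank 22 (r = 0.68), Dpu-Mir-10-P2-5p at rank 46 (r = 0.52) and Dpu-Mir-10-P2-3p at rank 54 (r = 0.47). miR-2765-5p had 107 ± 23.9 normalized counts (SD, n = 4) at S1–4, 5.60 ± 3.32 at S17 and 141 ± 32.8 at S24–30. The 5p arm of locus 6447 had only 13.4 ± 16.4 at S1–4 and no count at S14, so its r rests on low counts.

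For Dpu-Mir-10-P2-5p the order put some of the other members nearer. The 3p arm of the same precursor ranked 10th (r = 0.96) and Dpu-Mir-10-P3-5p ranked 11th (r = 0.96). Dpu-Mir-10-P3-3p ranked 32nd (r = 0.89) and let-7c-5p 77th (r = 0.52). The most like it were unnamed microRNAs, the 3p arm of locus 41598 on contig LQNS02278156.1 (r = 0.99) and the 5p arms of locus 10371 on LQNS02034317.1 (r = 0.98) and locus 26534 on LQNS02277445.1 (r = 0.98). For Dpu-Mir-10-P3-5p they were the 3p arms of locus 8703 on LQNS02020117.1, locus 40791 on LQNS02278148.1 and locus 24327 on LQNS02277097.1 (r = 0.98 each). In that order Dpu-Mir-10-P2-5p ranked 7th, Dpu-Mir-10-P3-3p 17th, Dpu-Mir-10-P2-3p 25th and let-7c-5p 52nd. The 3p arm of locus 8703 had 18.4 ± 11.3 normalized counts (SD, n = 4) at S1–4 and 0.586 ± 0.679 at S14, so its r rests on low counts.

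Relatives of miR-100 outside the complex were mostly higher at the end of embryogenesis. The list of miR-10 and miR-993 has 4 mature microRNAs, all of them tested, and 3 rose and none fell between S1–4 and S24–30, where 31.2% of all tested microRNAs were called higher and 24.8% lower, with a median log2 fold change of 3.88 against 1.09 over all tested microRNAs. miR-10-5p, whose gene lies in the Hox cluster of many other animals, held 4897 ± 718 normalized counts (SD, n = 4) at S1–4, 2321 ± 359 at S8–11 and 34110 ± 4679 at S24–30. It fell from S6 to S8–11, as Dpu-Mir-10-P2-5p did, by 1.60 on the log2 scale (SE 0.21, edgeR adjusted p = 1.41e-06). After that it rose from S8–11 to S14 and from S14 to S17, by 1.77 and 1.71 (edgeR adjusted p = 2e-06 and 3.51e-06). In the likeness order of Dpu-Mir-10-P2-5p it ranked 180th of 233 (r = −0.75).

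Of the microRNAs linked to ecdysone in *Drosophila*, miR-34, miR-8 and bantam were matched by name, with 6 mature microRNAs of which 4 were tested. In the fly, miR-34 is known from ageing and neurons, miR-8 from growth, and bantam as a growth microRNA that blocks cell death. Between S21–23 and S24–30, 1 of these 4 rose and none fell by edgeR, where 2.99% of all tested microRNAs were called higher and 6.41% lower. The one that rose was miR-34-5p, with a log2 fold change of 1.63 (SE 0.32, edgeR adjusted p = 0.000407). The others were Dpu-Mir-8-3p at 0.80, Dpu-Mir-8-5p at 0.37 and bantam-3p at −0.72 (edgeR adjusted p = 0.00447, 0.198 and 0.00235). The list was formed without regard to the direction in which ecdysone acts on each, and a link to the hormone was not tested. miR-34-5p held 175 ± 41.9 normalized counts (SD, n = 4) at S1–4, 37.8 ± 6.98 at S8–11, 6.61 ± 1.75 at S21–23 and 23.1 ± 6.02 at S24–30. It was lowest at S21–23 and at S24–30 was below S1–4 by 2.81 on the log2 scale (edgeR adjusted p = 2.06e-08). Between S1–4 and S24–30, 2 of the 4 rose and 1 fell, where 31.2% of all tested microRNAs were called higher and 24.8% lower, with Dpu-Mir-8-3p at 2.71 and bantam-3p at 1.82.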

How the data were processed

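Per the labels and methods, total RNA of pooled staged embryos was made into small RNA libraries with a Lexogen kit. The authors trimmed reads with cutadapt (1.18), removed tRNA and rRNA reads, aligned the rest with Bowtie (1.1.1, up to 1 mismatch) to the mature microRNAs predicted on Phaw 5.0, and quantified them with Salmon (0.14.1). The deposited expected counts are not normalized, and the deposited TPM values were not used. Reads of near-identical mature sequences could be divided between loci by the authors' processing.

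Expected counts were rounded. Levels were scaled by DESeq2 size factors (version 1.42.0). Changes between time-points come from edgeR (version 4.0.16, quasi-likelihood F-test, TMM scaling) in 1 model of 7 time-points, with Benjamini-Hochberg adjustment over 234 microRNAs, and arm ratios with limma (version 3.58.1) over 156 precursors, at an adjusted p of 0.05. The scripts were tested on simulated data. Ratios with 0.5 added were tested by permutation in Python (scipy 1.17.1). The named microRNAs are all members and, for each precursor, the 3 outside the complex most like its main arm, besides members of the lists. Those singled out from a list were chosen after their values were seen. Lists (miR-10 and miR-993; ecdysone-linked; neural; muscle; miR-92 and miR-184 as maternal load) and members were chosen with earlier results of these data known. Replicates were compared in 42 pairs, and none were identical (chi-square over degrees of freedom 7.79 to 228). Alternatives were other scalings, DESeq2, no filter, a replicate block, fits of 2 time-points, other added counts, and leaving out each library. The mRNA libraries were not analysed.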

Additional observations from a re-analysis of the deposited data

Results flagged for a closer look

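Of 31 sets of 4 libraries in which the highest or lowest value was compared with the rest, 3 had a library whose gap to its nearest neighbour exceeded Dixon's critical value, and chance gives about 1 in 20. Dpu-Mir-10-P2-5p held 16550 normalized counts in S6 replicate 1, against 8437 to 9198 in the other 3 libraries (gap 0.906 of the range). The same microRNA held 1495 in S14 replicate 2, against 690.7 to 807.0 in the others (gap 0.855 of the range). let-7c-5p held 84.19 in S21–23 replicate 1, against 7.286 to 11.54 in the others (gap 0.945 of the range). In that last library the maternal load of miR-92 and miR-184 took 21.4% of counts, against 25.4% to 27.2% in the other S21–23 libraries and 17.6% to 20.6% at S24–30.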

How the results depend on the processing

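No result changed direction while called. From S6 to S8–11, 2 members were called in the main analysis, 0 with total counts, 1 in a fit of these 2 time-points alone and 1 to 2 without a library; DESeq2 called 3. From S8–11 to S14, 0 were called, 1 with DESeq2 and 0 to 1 without a library. From S17 to S21–23 and from S21–23 to S24–30, 1 was called at each, 0 in fits of the 2 time-points alone (let-7c-5p 2.93, edgeR adjusted p = 0.0213, at the later step) and 0 to 1 without a library. From S8–11 to S24–30, 2 were called, and 4 with DESeq2. The arm-ratio F of Dpu-Mir-10-P2 was 2.87 to 5.67 without a replicate, and that of Dpu-Mir-10-P3 was 6.66 with 5 added (limma adjusted p = 0.000359, a call gained) and 1.099 to 4.15 without a replicate (gained without replicate 4). With a replicate block it was 3.08 (limma adjusted p = 0.0347, also gained), and the block changed no member's call between time-points. Whether replicate numbers pair the libraries was not tested. The mean r of deviations was 0.022 over 84 same-numbered pairs and −0.008 over 252 other-numbered pairs. Of these, 21 and 38 pairs were above 0.1. Over all microRNAs, total counts gave 137 higher and 33 lower calls from S1–4 to S24–30 in place of 73 and 58, and fits of S21–23 and S24–30 alone gave 0 and 0 in place of 7 and 15. DESeq2 called 17 higher and 25 lower there. Low counts limit the miR-125 group, whose 5p arm had 0 to 4 reads in each library from S14 to S21–23. The causes of these differences were not tested.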

Other observations

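Lists of tissue and maternal microRNAs were followed in the same libraries. Of the maternal load of miR-92 and miR-184 (14 mature microRNAs, 9 tested), none rose and 5 fell from S1–4 to S24–30 by edgeR, with a median log2 fold change of −2.15 against 1.09 over all tested microRNAs, of which 24.8% were called lower and 31.2% higher. The list was chosen as the early load of these same embryos, so its fall was partly fixed by that choice. All 5 that fell were miR-92 arms. The miR-184-3p loci had near-identical values, at −0.67 each, and none was called. Of the neural list of miR-124, miR-7 and miR-9 (10 mature microRNAs, 8 tested), 6 rose and none fell between the same time-points. Of the muscle list of miR-1 and miR-133 (6 mature microRNAs, 3 tested), 1 rose and none fell, a share near that of all tested microRNAs. The muscle list took 0.0398% ± 0.0658 of counts (SD, n = 4) at S1–4, where 1 library stood apart at 0.138% and a sum of 1303 normalized counts against a median of 108.8 over the 4. It took 0.0338% ± 0.00668 of counts (SD, n = 4) at S17 and 0.582% ± 0.0989 at S24–30.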
